A study of Mus musculus with 4 samples.

Results

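Osteoclasts are the cells that dissolve bone, and the authors' deposited annotation gave that name to 263 cells from 4 mouse sarcomas. The members were all cells so named in the table of non-malignant cells, which holds 12648 cells, and the series holds 31611 cells in all. The vehicle mice held 28 (replicate 1) and 152 (replicate 2) of them, and the digoxin mice 47 and 36. The tumors were hind limb sarcomas of an allograft model with Trp53flox/flox alleles on the 129/SvJae strain, and the genotype of the recipient mice, their age and the origin of the grafted cells are not given in the sources used here. All 4 mice received injections into the abdominal cavity every 24 h, and their tumors were taken after 4 doses. The 2 vehicle mice received PBS, and the 2 digoxin mice received 2 mg/kg of digoxin, a cardiac glycoside that blocks the sodium pump, dissolved in DMSO and then diluted in PBS. Dissociated tumor cells were strained through a fine mesh and profiled with a droplet kit that reads the 3′ end of each RNA molecule and counts molecules by unique molecular identifiers (UMIs). Each mouse gave 1 library and is 1 replicate.

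Osteoclasts form from monocytes and macrophages that receive 2 signals, CSF1 through the receptor Csf1r and RANK ligand through the receptor Tnfrsf11a (RANK). RANK signalling, helped by receptors that pair with the adaptors Tyrobp and Fcer1g, switches on Nfatc1, the master transcription factor of the lineage. The precursors then fuse, attach to bone through the integrin of Itgav and Itgb3, and pump protons and chloride into a sealed space, where cathepsin K (Ctsk) and other enzymes digest the freed collagen.

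Expression is given as CPM: in every cell UMIs were scaled to a total of 1000000, and each gene was then averaged over the cells of a mouse. Where 4 values are given in a row, their order is vehicle replicate 1, vehicle replicate 2, digoxin replicate 1 and digoxin replicate 2. Differences are on the log2(CPM + 1) scale, which understates differences of low genes. The osteoclasts carried 790625 and 3702232 UMIs in the vehicle mice and 1466268 and 1037640 UMIs in the digoxin mice. Median depth per osteoclast was 24700.5, 22907, 28744 and 27543.5 UMIs, against 16070 to 17049 UMIs per macrophage. A gene with no UMI in a mouse may stand at up to 3.79, 0.810, 2.05 or 2.89 CPM, the level of 3 UMIs, which covers counting error only. Vehicle replicate 2 stood apart in 2 ways. It held 152 of the 263 osteoclasts, and its host cells differed in sex-linked RNA. Xist, the RNA that silences an X chromosome, had 0 CPM in its osteoclasts and 664 to 729.7 CPM in those of the other 3 mice, and the Y-linked Ddx3y had 54.2 CPM against 1.17 to 3.67 CPM. Across the 31611 cells, 113 barcodes occurred in more than 1 library, and 1 osteoclast carried such a barcode.

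The labelled cells carried the 4 markers Acp5, Ctsk, Mmp9 and Nfatc1. All 4 were detected in 241 of the 263 osteoclasts, 3 in 15 cells and 2 in 7 cells, and no osteoclast had fewer. Acp5 is the acid phosphatase by which osteoclasts are stained, and it stood at 11079 and 15970.3 CPM with vehicle and 9538 and 8936 CPM with digoxin. Ctsk stood at 9325 and 11208 CPM with vehicle and 7144 and 9075 CPM with digoxin. In macrophages of the same mice Acp5 lay between 73.7 and 99.9 CPM and Ctsk between 22.5 and 24.8 CPM, far under every osteoclast value. Mmp9, a gelatinase of osteoclasts and neutrophils, stood at 5450, 9729, 5033 and 6118 CPM, against 10.9 to 16.3 CPM in macrophages. Nfatc1 lay between 544 and 645 CPM in osteoclasts and between 28.3 and 34.5 CPM in macrophages. The deposited types rest on these expression values, so marker levels in the labelled cells are no independent check of the label. Osteoclasts against macrophages is likewise a description and was not tested.

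Among the macrophages, the 4 markers were highest in a sub-cluster that the authors named Highly proliferative M2. Acp5 there lay between 269.6 and 393 CPM, Ctsk between 99.6 and 119.9 CPM and Mmp9 between 46.5 and 81.4 CPM. Much of the Ctsk and Mmp9, and less of the Acp5, came from 28 of its 1297 cells, each with at least 20 Ctsk UMIs per 10000. Nfatc1 lay between 66.7 and 95.3 CPM with such cells and between 56.0 and 87.3 CPM without them. Without such cells Acp5 lay between 177 and 265 CPM, Ctsk between 19.7 and 31.0 CPM and Mmp9 between 8.89 and 39.1 CPM. In the sub-clusters M1 and M2 these genes reached at most 69.7 CPM, 16.9 CPM and 9.19 CPM. Fibroblasts had Ctsk at 253 to 388 CPM and Mmp9 at 4.27 to 24.0 CPM, and malignant cells had Ctsk at 56.3 to 86.7 CPM. Neutrophils had Mmp9 at 351, 0, 679 and 181 CPM. Nfatc1 was the least restricted of the 4, with 56.7 to 74.9 CPM in T cells, where the factor acts below the antigen receptor. All 4 markers were detected together in 79 of 10363 macrophages (0.762%) and 13 of 203 fibroblasts (6.40%). Of the 79 macrophages, 61 were Highly proliferative M2 cells, a share of 4.70% there, against 0.117% in M1 and 0.272% in M2. These shares are without thinning to an equal depth. Median depth per mouse was 18866 to 36748.5 UMIs in fibroblasts and 16070 to 17049 UMIs in macrophages. Only genes with a mean of at least 5 CPM in osteoclasts or in macrophages were used for rank correlations. Among the non-malignant populations compared, the rank correlation of osteoclasts was highest with the macrophage sub-clusters. Across 9639 genes within a mouse it was 0.738 to 0.789 with M2, 0.744 to 0.784 with Highly proliferative M2 and 0.712 to 0.755 with M1. It was 0.665 to 0.696 with T cells and 0.637 to 0.674 with fibroblasts. It was 0.588 to 0.626 with dendritic cells and 0.537 to 0.664 with neutrophils, which held only 5 to 34 cells per mouse. These correlations are across genes, which are not independent, and the populations compared share a library. The genes were chosen partly by their macrophage level, and the macrophage sub-clusters held more cells than the other populations compared.

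**Figure D1:**
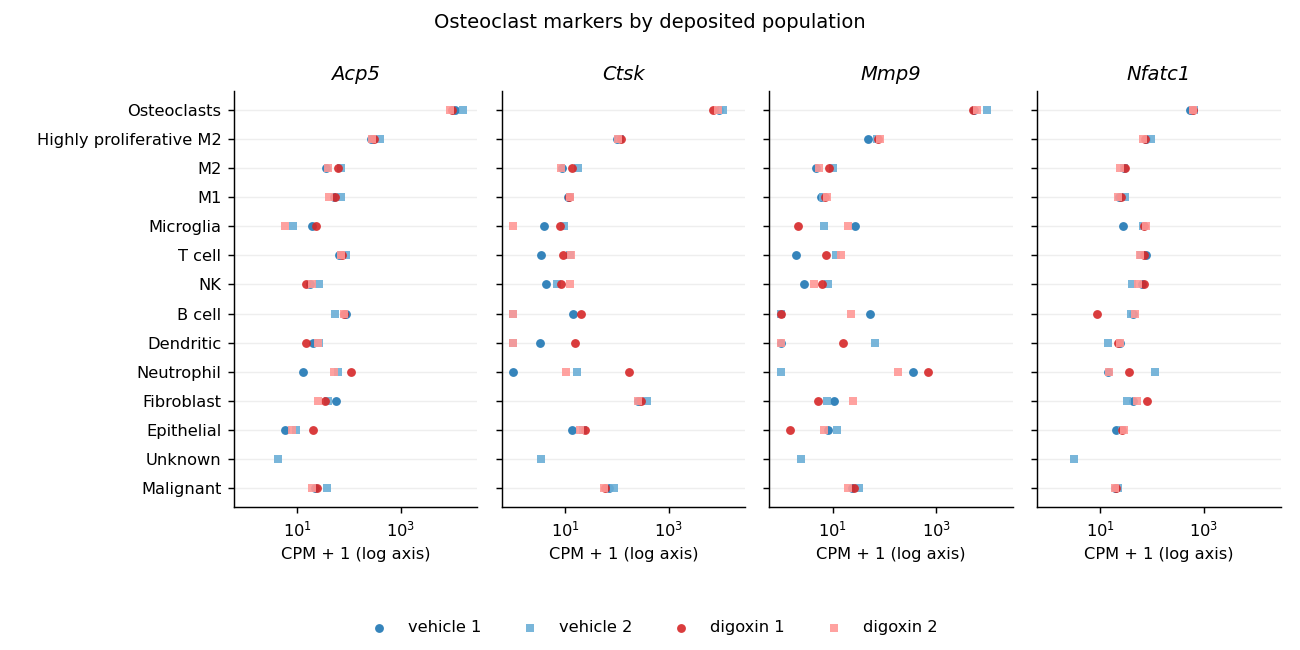
Mean CPM per cell plus 1 (log axis) of the 4 osteoclast markers in each deposited population, with 1 point per mouse, blue for vehicle and red for digoxin. In all 4 mice the osteoclasts lie to the right of every other population, and Highly proliferative M2 cells lie to the right of M1 and M2 for each marker.

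Markers of other cell types were mostly low in the osteoclasts. All 4 T cell markers, 3 of 3 NK markers, 3 of 3 B cell markers, 4 of 4 mast cell markers and 4 of 4 dendritic cell markers lay under 5 CPM in every mouse. Of the osteoblast markers, Bglap and Alpl were at 0 in all 4 mice, and Ibsp and Sp7 were not analysed here. The 4 fibroblast markers summed to 79.5 to 104 CPM, and the 8 macrophage markers summed to 851, 1370.1, 1515 and 831 CPM. Csf1r, which osteoclasts share, gave 653 to 881 CPM of these sums, and the other 7 summed to 149, 489.6, 825 and 178 CPM, against 12056 to 16499.9 CPM in macrophages. The macrophage sum was thus higher in 1 mouse of each group, and no macrophage marker was at 0 in all 4 mice. Of the plasmacytoid markers, Bst2, which interferon also induces, lay between 66.0 and 180.1 CPM, against 179 to 257 CPM in macrophages. The neutrophil marker S100a8 lay between 2.69 and 11.5 CPM, and the other 3 neutrophil markers were under 5 CPM. Doublet scoring marked 4 of the 263 osteoclasts, all from vehicle replicate 2.

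Genes with a mean of at least 50 CPM in osteoclasts were ranked by their smallest osteoclast excess over the 4 mice. Those leading the ranking are given first. After Mmp9 and Ctsk, at 332- to 647-fold and 288- to 434-fold of the macrophage level on the CPM + 1 scale, came Slc9b2, a sodium-proton exchanger. It lay between 755 and 989 CPM in osteoclasts and between 3.36 and 4.95 CPM in macrophages. Acp5, Atp6v0d2 and Ocstamp followed. Mt3, a zinc-binding metallothionein, lay between 158 and 270.0 CPM against 0.162 to 1.33 CPM, and Coq8a, which serves coenzyme Q synthesis, between 197 and 319.7 CPM against 2.15 to 3.85 CPM. Akap6, Bdh2, Rufy4, Cyp2s1, Myo1d and Chchd10 were also among the 15 leading genes. Myo1d is a motor protein of the membrane cytoskeleton, Chchd10 is a mitochondrial protein and Bdh2 is a dehydrogenase. For the other direction, genes with a mean of at least 50 CPM in macrophages were ranked likewise. The 15 genes furthest below macrophages were Ccl4, Hp, Plac8, Ltb4r1, Ccl6, Saa3, Wfdc17, Sorl1, Fcrls, Fcgr1, Mgl2, Cbr2, Cd14, Rgs1 and Cd38. Chemokines, receptors for antibody or lipopolysaccharide and a lectin are among them. Cd14, the lipopolysaccharide co-receptor, lay between 36.4 and 104 CPM in osteoclasts against 2012 to 3021 CPM in macrophages, and Fcgr1, a high-affinity antibody receptor, between 2.91 and 10.2 CPM against 267 to 342 CPM.

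Acid secretion separated the types broadly. Of 24 acid secretion genes above 5 CPM, 20 were higher in osteoclasts than in macrophages of the same mouse in all 4 mice, and 3 were lower. Over all 9131 genes above 5 CPM, 26.7% were higher in all 4 mice and 41.0% were lower. Here and in the list counts below, a gene is above 5 CPM where its osteoclast and macrophage means average at least 5 CPM. A gene nearly absent from 1 type thus enters only through the type where it is high, which largely sets its direction. This holds for osteoclast genes, macrophage genes and the shares over all genes alike. At least 2-fold higher in all 4 mice were 16 of the 24, against 7.17% of all genes. The proton pump that acidifies the resorption space is a V-ATPase, built from a ring in the membrane and a motor outside it. Its osteoclast-type membrane subunit Atp6v0d2 stood at 1055 and 1054 CPM with vehicle and 1019.9 and 1167 CPM with digoxin, against 7.19 to 10.0 CPM in macrophages. Its widely expressed relative Atp6v0d1 was lower in osteoclasts, at 87.5 to 112 CPM against 139 to 153 CPM. The a subunits differed likewise. Tcirg1, the a3 subunit of the osteoclast pump, lay between 383 and 499 CPM against 100.5 to 122 CPM, and Atp6v0a1 lay between 6.70 and 12.6 CPM against 58.0 to 71.3 CPM. The motor subunit Atp6v1b2 lay between 879 and 1021 CPM against 121 to 153 CPM. Of the other parts of acid transport, Car2, the carbonic anhydrase that supplies protons, lay between 32.6 and 86.5 CPM in osteoclasts and at or under 1.01 CPM in macrophages. Car2 was not particular to osteoclasts, since NK cells had it at 274 to 335 CPM. Slc4a2, which exchanges the bicarbonate left behind, lay between 191 and 242 CPM against 24.1 to 29.7 CPM. Snx10, which sorts vesicles to the ruffled border, lay between 425 and 669 CPM against 52.4 to 61.4 CPM. The chloride transporter Clcn7 was higher by a smaller margin, at 44.8, 50.2, 23.2 and 63.7 CPM against 17.7 to 21.9 CPM, and digoxin replicate 1 lay just above the macrophages.

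Upstream sequence is shown for 3 acid secretion genes because Mitf and its relatives bind the E-box CACGTG in genes of acid compartments, and for Ctsk because its activation by Spi1 (PU.1) is textbook knowledge. The windows hold 250 bases before the annotated start, from RefSeq on build GRCm38.p6 (mm10), and both strands were searched. CACGTG was in 4 of 19 acid secretion genes with an entry (21.1%), Atp6v0b, Atp6v1a, Clcn7 and Cln3, against 6.86% of 27025 genes. Genes lower in osteoclasts held it too, namely Cln3, at 26.3 to 38.6 CPM against 40.2 to 42.1 CPM, and Ctsd and Ctsl, which were the 2 of 7 resorption genes with it. None of the 10 genes with an entry among the 15 leading genes held it. Capitals mark CACGTG in Atp6v0b (chr4:117887330-117887579, minus strand), Atp6v1a (chr16:44139260-44139509, minus strand) and Clcn7 (chr17:25133141-25133390, plus strand). In Ctsk (chr3:95498960-95499209, plus strand) they mark GAGGAA, the core of PU.1 sites, on either strand, which 25.9% of all genes hold.
Atp6v0b: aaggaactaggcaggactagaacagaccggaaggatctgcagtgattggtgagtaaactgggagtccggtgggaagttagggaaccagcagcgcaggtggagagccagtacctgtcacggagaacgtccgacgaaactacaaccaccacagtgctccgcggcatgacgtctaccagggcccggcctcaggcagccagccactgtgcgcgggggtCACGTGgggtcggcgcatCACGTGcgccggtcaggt
Atp6v1a: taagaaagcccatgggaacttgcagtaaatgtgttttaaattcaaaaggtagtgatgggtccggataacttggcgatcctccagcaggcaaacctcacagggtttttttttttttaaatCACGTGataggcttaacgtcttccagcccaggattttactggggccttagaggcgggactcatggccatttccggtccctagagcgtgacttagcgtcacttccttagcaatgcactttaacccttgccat
Clcn7: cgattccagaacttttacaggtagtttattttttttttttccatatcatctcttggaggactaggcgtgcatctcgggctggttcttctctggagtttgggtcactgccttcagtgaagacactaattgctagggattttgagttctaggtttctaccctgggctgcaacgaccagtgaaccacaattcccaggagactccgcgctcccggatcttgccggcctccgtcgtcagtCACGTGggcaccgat
Ctsk: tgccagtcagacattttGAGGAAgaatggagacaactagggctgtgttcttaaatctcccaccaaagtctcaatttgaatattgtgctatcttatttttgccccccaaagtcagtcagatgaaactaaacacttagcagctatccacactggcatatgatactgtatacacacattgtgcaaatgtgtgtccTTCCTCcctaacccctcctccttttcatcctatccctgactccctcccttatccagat
A match describes these letters only. Mitf itself lay between 99.1 and 131 CPM in osteoclasts against 29.6 to 37.1 CPM in macrophages, its relative Tfe3 was lower at 30.1 to 41.1 CPM against 55.4 to 57.9 CPM, and Spi1 lay between 629 and 674 CPM against 377 to 443 CPM.

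Lysosomal proteases did not all follow Ctsk. Of 8 resorption genes above 5 CPM, 4 were higher in osteoclasts in all 4 mice and 3 were lower. Mmp14, a membrane-bound collagenase, lay between 407 and 509.7 CPM against 61.1 to 71.4 CPM. Cathepsins B, D and L, general lysosomal proteases, were lower. Ctsb lay between 422 and 519.7 CPM against 1869 to 2049 CPM, and Ctsl between 92.4 and 158 CPM against 692 to 981 CPM. Among fusion genes, the membrane proteins Ocstamp and Dcstamp that precursors need to fuse lay between 233 and 324 CPM and between 69.5 and 105 CPM, against 1.38 to 2.05 CPM and 9.61 to 19.1 CPM. Within the macrophages, the M1 sub-cluster had Dcstamp at 29.9 and 58.2 CPM with vehicle and 25.3 and 16.9 CPM with digoxin. The tetraspanin Cd9 was also higher in osteoclasts than in macrophages. Of 7 fusion genes above 5 CPM, 3 were higher in all 4 mice and 4 were lower, namely Cd47, its receptor Sirpa, Adam8 and the tetraspanin Cd81. Cd81 lay lowest against macrophages, at 23.3 to 39.9 CPM against 251 to 366 CPM. For attachment, Itgb3 stood at 39.7 and 89.6 CPM with vehicle and 48.6 and 28.1 CPM with digoxin, against 1.5 to 1.70 CPM in macrophages. Other populations had Itgb3 at like levels, with 44.5 to 106 CPM in the cells named epithelial, 53.2 to 77.4 CPM in NK cells and 28.9 to 62.9 CPM in T cells. Src, the kinase needed for a ruffled border, lay between 89.8 and 104 CPM against 6.61 to 8.04 CPM. Calcr, the calcitonin receptor of mature osteoclasts, lay between 10.6 and 32.3 CPM, and no macrophage value passed 0.00985 CPM. In all, 8 of 12 attachment genes were higher in all 4 mice, and Spp1 (osteopontin) and Pstpip2 were lower. Calcr entered this count through osteoclasts alone.

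Along the RANK pathway, 9 of 17 genes were higher than in macrophages in all 4 mice, the receptor RANK and Nfatc1 among them, and 6 were lower. Tnfrsf11a stood at 148 and 168 CPM with vehicle and 149 and 185 CPM with digoxin, against 44.2 to 49.7 CPM in macrophages. Its adaptor Traf6 lay between 22.8 and 34.0 CPM against 12.4 to 15.7 CPM. Prdm1, which represses the inhibitors of Nfatc1, lay between 169 and 237 CPM against 18 to 23.6 CPM, and the AP-1 partner Jdp2 between 551 and 827 CPM against 83.6 to 171 CPM. Fos, Jun, Nfkb1, Nfatc2, Tfe3 and Myc were the 6 lower genes. Fos and Jun also respond to tissue dissociation. Of 9 costimulation and growth receptor genes, 4 were higher in all 4 mice (Csf1r, Tyrobp, Oscar and Siglec15) and 4 lower (Fcer1g, Syk, Plcg2 and Cx3cr1). Csf1r lay between 653 and 881 CPM against 491 to 755 CPM, and Trem2 between 179 and 282 CPM against 205 to 333 CPM. The osteoclast receptors Oscar and Siglec15 lay between 6.34 and 24.4 CPM and between 9.22 and 25.1 CPM, and no macrophage value passed 0.143 CPM. Both genes entered the count through osteoclasts alone. Cx3cr1, a receptor of precursors, was at 0, 12.2, 19.7 and 7.51 CPM, against 197 to 389 CPM.

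Of 9 inhibitors of osteoclast formation above 5 CPM, none was higher in all 4 mice and 8 were lower. The transcription factor Irf8 lay between 7.42 and 20.6 CPM against 115 to 164 CPM. It represses Nfatc1 or its action in precursors. All 14 resident-type macrophage genes and all 15 monocyte and inflammatory genes above 5 CPM were lower, 14 of each at least 2-fold (12.6% of all genes), as were all 7 MHC class II genes. Mrc1, the mannose receptor, lay between 30.1 and 63.5 CPM against 1190.2 to 1391 CPM. Of 13 energy metabolism genes, 12 were higher and none lower. Ppargc1b, a coactivator of mitochondrial growth, lay between 166 and 209 CPM against 8.69 to 12 CPM. Mitochondrial RNA made up a median of 9.48%, 10.8%, 7.86% and 7.64% of UMIs per osteoclast, and 4.53% to 6.44% per macrophage. Of 16 cell cycle genes none was higher in all 4 mice and 15 were lower, a count taken against all macrophages together. Mki67, a marker of dividing cells, lay between 9.51 and 24.4 CPM against 110 to 158 CPM. The macrophage level depended on the sub-cluster. With macrophages of high Ctsk left out, Mki67 lay between 784 and 930 CPM in Highly proliferative M2 cells. In the M1 and M2 cells it lay between 38.8 and 47.7 CPM, a smaller margin over the osteoclasts.

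**Figure D2:**
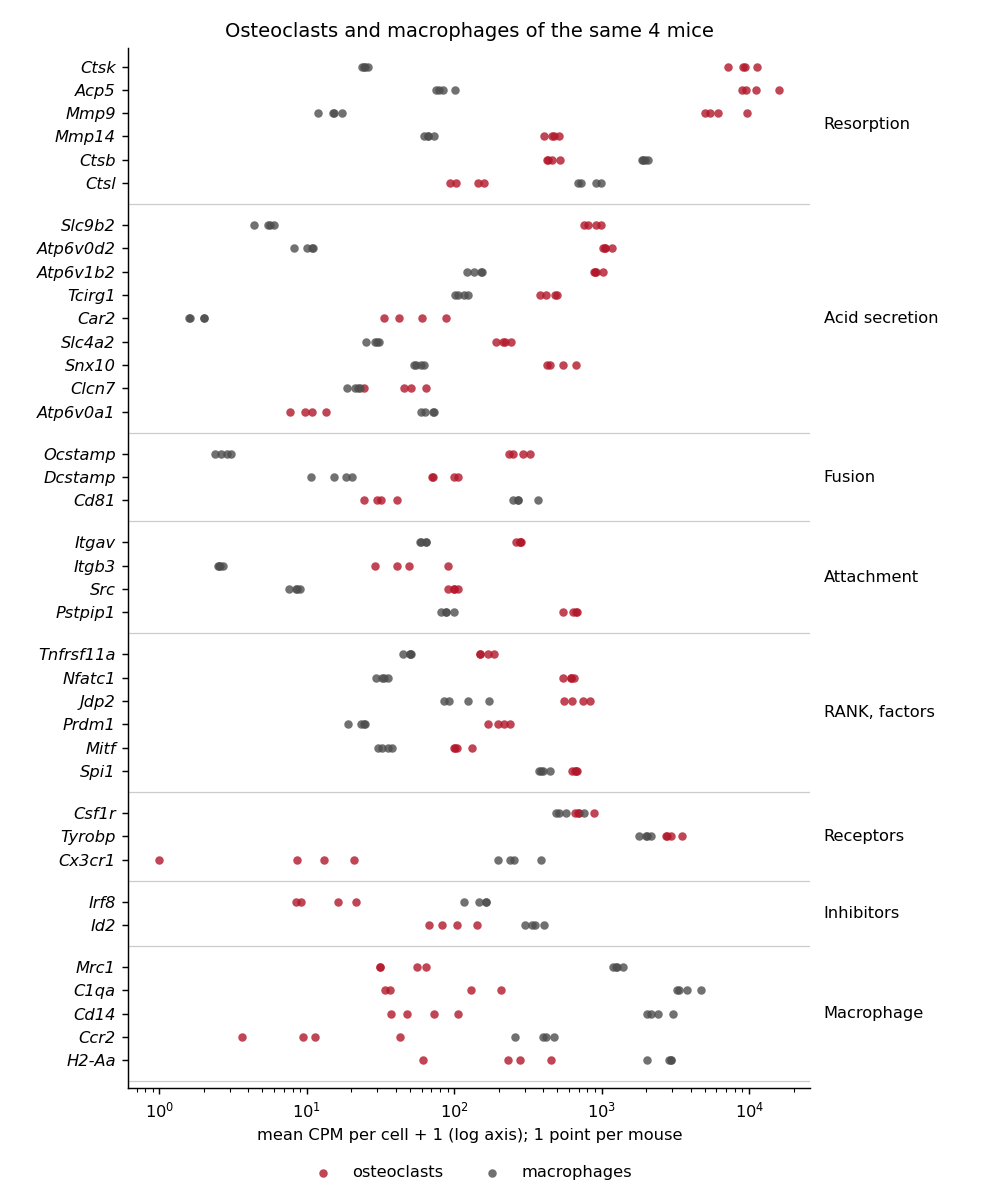
Mean CPM per cell plus 1 (log axis) of selected genes grouped by role, with 1 point per mouse for osteoclasts (red) and macrophages (grey). The resorption, acid secretion, fusion and attachment genes drawn lie to the right in osteoclasts, except Ctsb, Ctsl, Atp6v0a1 and Cd81, and inhibitors and macrophage genes lie to the left in each mouse.

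The osteoclasts were not uniform. To compare cells at 1 depth, each was thinned to 5000 UMIs, and no osteoclast was left out. Median Ctsk was 51, 56, 38 and 47.5 UMIs per 5000, and single cells reached from 0 to 138. Within each mouse, the cells were ranked by Ctsk, over 28 to 152 cells of 1 library, and the rank correlations below describe these cells. Acp5 had a rank correlation with Ctsk of 0.646 to 0.805 over the 4 mice, and Mmp9 one of 0.644 to 0.850. Cox4i1, a respiratory chain subunit, had 0.511 to 0.692, and the brain-type creatine kinase Ckb 0.496 to 0.669. Hexa, a lysosomal enzyme, and Snx10 had 0.447 to 0.795 and 0.445 to 0.649. Of 18 acid secretion genes seen in at least 25% of osteoclasts, 16 were positive in all 4 mice and 0 negative, and of 13 mitochondrially encoded genes 12 were positive and 0 negative. Of all 2198 such genes, 380 were positive in all 4 mice and 433 negative. Running the other way, 65 of 80 cytosolic ribosomal protein genes were negative in all 4 mice and 0 positive. Lgals1, a galectin, had -0.603 to -0.490, and S100a10, an annexin partner, -0.700 to -0.420. Of 10 RANK pathway genes, 3 were positive in all 4 mice and 1 was negative. The positive ones were weak, with Tnfrsf11a at 0.119 to 0.185, Nfatc1 at 0.149 to 0.302 and Fosl2 at 0.119 to 0.224.

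At the low end lay 22 cells with at most 5 Ctsk UMIs per 5000, and they were 5, 6, 7 and 4 of the osteoclasts per mouse. As a description of cells chosen by Ctsk, with which Acp5 and Mmp9 rank together, they had a mean of 18.7 Acp5 UMIs per 5000 against 71.6 in the other 241 cells and 0.955 Mmp9 UMIs against 43.7. At this thinned depth none of the 22 had a UMI of Dcstamp or Itgb3, which 89 and 53 of the 241 had. Without thinning, 3 of the 22 and 174 of the 241 had one of Dcstamp, and 0 and 124 had one of Itgb3. Nfatc1 had 2.45 against 3.22 UMIs and Tnfrsf11a 0.773 against 0.838. Lyz2, the lysozyme of myeloid cells, had 8.64 against 1.75 UMIs, and C1qa had 1.55 against 0.485 UMIs, seen in 4 of the 22 and 36 of the 241. Thinning is a random draw, and a second draw used further below saw C1qa in 34 of the 263 osteoclasts. The MHC class II chain Cd74 had 6.32 against 6.87 UMIs. These cells were shallower, at a median of 19392.5 against 25600 UMIs before thinning, and mitochondrial RNA made up 6.38% against 10.0%. The 22 and the 241 cells were pooled over the mice and held them in different proportions. Vehicle replicate 2 gave 6 of the 22 but 152 of all 263 osteoclasts, and its osteoclasts had the highest median mitochondrial share (10.8%). The part of the mouse in these differences was not tested, and that of depth was not tested beyond the thinning.

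**Figure D3:**
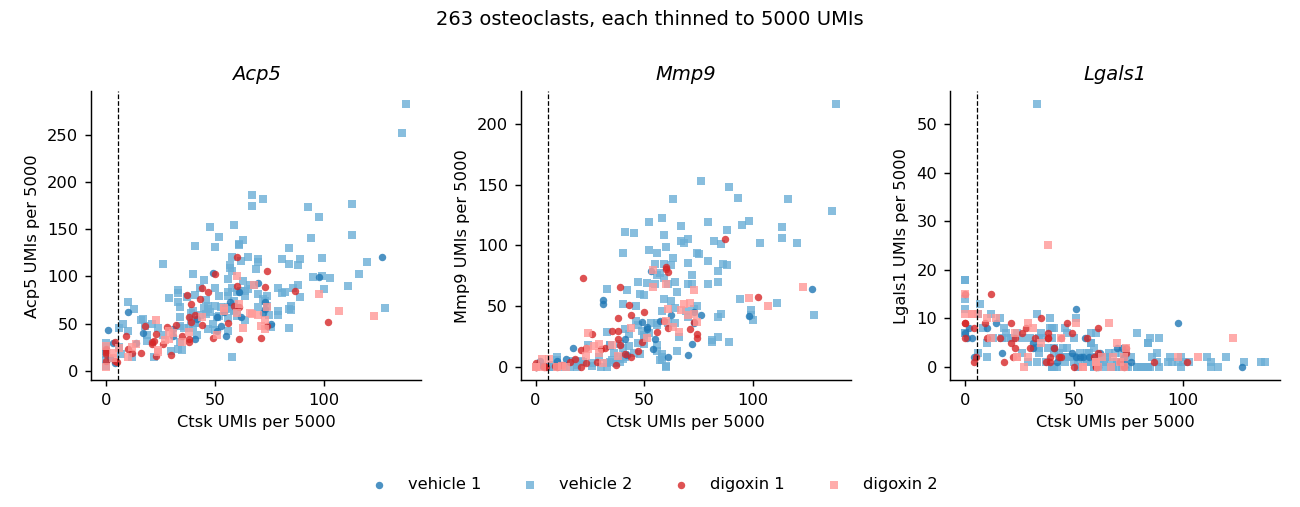
UMIs per 5000 of Acp5, Mmp9 and Lgals1 (vertical axes) against Ctsk (horizontal axes) in 263 osteoclasts, with 1 point per cell colored by mouse and a dashed line above 5 Ctsk UMIs. Acp5 and Mmp9 are high where Ctsk is high in each mouse, and Lgals1 is low there.

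The share of osteoclasts did not separate the groups. They made up 0.923% of the non-malignant cells in vehicle replicate 1 (exact 95% interval 0.614 to 1.33) and 5.04% in vehicle replicate 2 (4.29 to 5.89). With digoxin they made up 1.41% (1.03 to 1.86) and 1.11% (0.775 to 1.53). Both digoxin mice thus lay between the vehicle mice, and vehicle replicate 2 alone was high. The intervals cover counting error only. The two-sided exact permutation p over the 4 mice was 1, where 0.333 is the smallest this design allows. Among osteoclasts and macrophages together the difference was -2.0 percentage points with an exact permutation p of 1.

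The differences between the groups that follow are called digoxin differences. DMSO is named for the digoxin mice only, so its effect cannot be told apart from that of digoxin. Vehicle replicate 2 alone differed in sex-linked RNA, and the part of this in the differences was not tested. Within osteoclasts 7803 genes were tested with limma on 1 value per mouse. Of these, 1 gene passed an adjusted p of 0.05 (0.0128% of the genes tested). It was Txnip, the thioredoxin-interacting protein, which binds thioredoxin and restrains glucose uptake. Txnip stood at 183 and 142 CPM in the vehicle mice and at 43.8 and 41.1 CPM in the digoxin mice, from 154, 489, 68 and 52 UMIs. The groups did not overlap, with vehicle higher. Txnip fell by 1.90 on the log2 scale (SE 0.187, limma adjusted p = 0.0110). At an equal depth of 5000 UMIs per cell, Txnip was seen in 53.6% and 38.2% of osteoclasts with vehicle and 25.5% and 19.4% with digoxin. The 95% intervals of vehicle replicate 2 (30.4 to 46.4) and digoxin replicate 1 (13.9 to 40.3) overlapped. Thinning is a random draw, and a second draw gave 64.3% and 35.5% with vehicle and 25.5% and 19.4% with digoxin. Without thinning the shares were 75%, 68.4%, 63.8% and 50%. The highest single cell in each mouse did not carry the difference, since the levels without it were 153, 134, 40.1 and 36.0 CPM. Leaving out either vehicle mouse ended the call, with a log2 difference of -1.72 (limma adjusted p = 0.614) without vehicle replicate 1 and -2.08 (limma adjusted p = 0.110) without vehicle replicate 2. The call was also lost with edgeR, limma-voom, CPM of summed UMIs and thinned cells.

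In macrophages of the same mice Txnip stood at 89.9 and 98.5 CPM with vehicle and 89.5 and 65.3 CPM with digoxin. The osteoclast values with vehicle thus lay above the macrophages, and those with digoxin below them. The difference between the digoxin effects of the 2 types was -1.60 on the log2 scale (SE 0.231), and it did not pass (limma adjusted p = 0.335). By limma, 0 of 7803 genes passed for this difference (0.0%), 351 had an unadjusted p under 0.05, and edgeR called 0 as well. Ifit2, an interferon-induced gene, and Ssh2, a phosphatase that acts on cofilin, came next by p. In osteoclasts Ifit2 stood at 2.93 and 3.49 CPM with vehicle and 10.5 and 23.0 CPM with digoxin, and in macrophages at 29.4 to 50.9 CPM. The osteoclast values rest on 2, 15, 14 and 26 UMIs. Ifit2 passed the filter on low genes only through the digoxin mice, where it was high. Its difference of 2.10 did not pass (limma adjusted p = 0.335). In other populations Txnip lay between 229 and 242 CPM in T cells, 137 and 169 CPM in NK cells and 24.0 and 34.7 CPM in malignant cells. Both digoxin mice were also lower in M1 macrophages, at 86.5 and 90.7 CPM with vehicle and 75.04 and 70.1 CPM with digoxin, and in microglia, neutrophils and B cells, of which the last 2 held 4 to 34 cells per mouse. Both lay above both vehicle mice in T cells, NK cells, the cells named epithelial and dendritic cells. The epithelial values were 141 and 134 CPM with vehicle and 163 and 174 CPM with digoxin. The dendritic values were 24.0 and 15.7 CPM with vehicle and 39.9 and 45.7 CPM with digoxin, from 8, 4, 9 and 5 UMIs in 10 to 21 cells per mouse. These differences were not tested.

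The upstream sequence of Txnip (chr3:96557707-96557956 on GRCm38.p6, plus strand, RefSeq) is shown because it carries the double CACGAG element through which the sugar-sensing factors Mlxip and Mlxipl act. Capitals mark that element, CACGAGNNNNNCACGAG, which begins 85 bases before the start, and CCAAT boxes on either strand.
Txnip: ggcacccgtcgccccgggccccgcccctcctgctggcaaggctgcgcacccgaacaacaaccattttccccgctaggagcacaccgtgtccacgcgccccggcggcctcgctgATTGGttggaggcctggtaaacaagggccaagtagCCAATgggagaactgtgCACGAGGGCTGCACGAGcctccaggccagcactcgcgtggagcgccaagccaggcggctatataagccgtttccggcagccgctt
Of 27025 genes, 1 held this exact double element in the window, and 37.5% held CCAAT. Mlxip stood at 31.5, 29.0, 26.4 and 28.2 CPM in osteoclasts, and Mlxipl had no UMI there. Arrdc4, an arrestin relative of Txnip with the same regulators, stood at 40.6, 54.0, 52.5 and 54.1 CPM, with no separation of the groups. Its relatives Arrdc2, at 9.0 and 7.09 against 5.76 and 2.45 CPM, and Arrdc3, at 6.07 and 5.31 against 4.03 and 1.77 CPM, were too low to be tested, and Arrdc1 lay above vehicle. Of the 8 genes tested in the list of Txnip and its relatives, 4 lay above both vehicle mice (21.6% of all genes did) and 2 below (15.8%). Txn1, the cytosolic thioredoxin, overlapped between the groups, at 1675 and 1472 CPM with vehicle and 1588 and 1768 CPM with digoxin. Txn2 and Txnrd1 lay above vehicle without passing. Txn2, the mitochondrial thioredoxin, stood at 230.3 and 219 CPM with vehicle and 279 and 279 CPM with digoxin (log2 difference 0.31, limma adjusted p = 0.781), and the reductase Txnrd1 at 121 and 122 against 149.9 and 222 CPM.

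**Figure D4:**
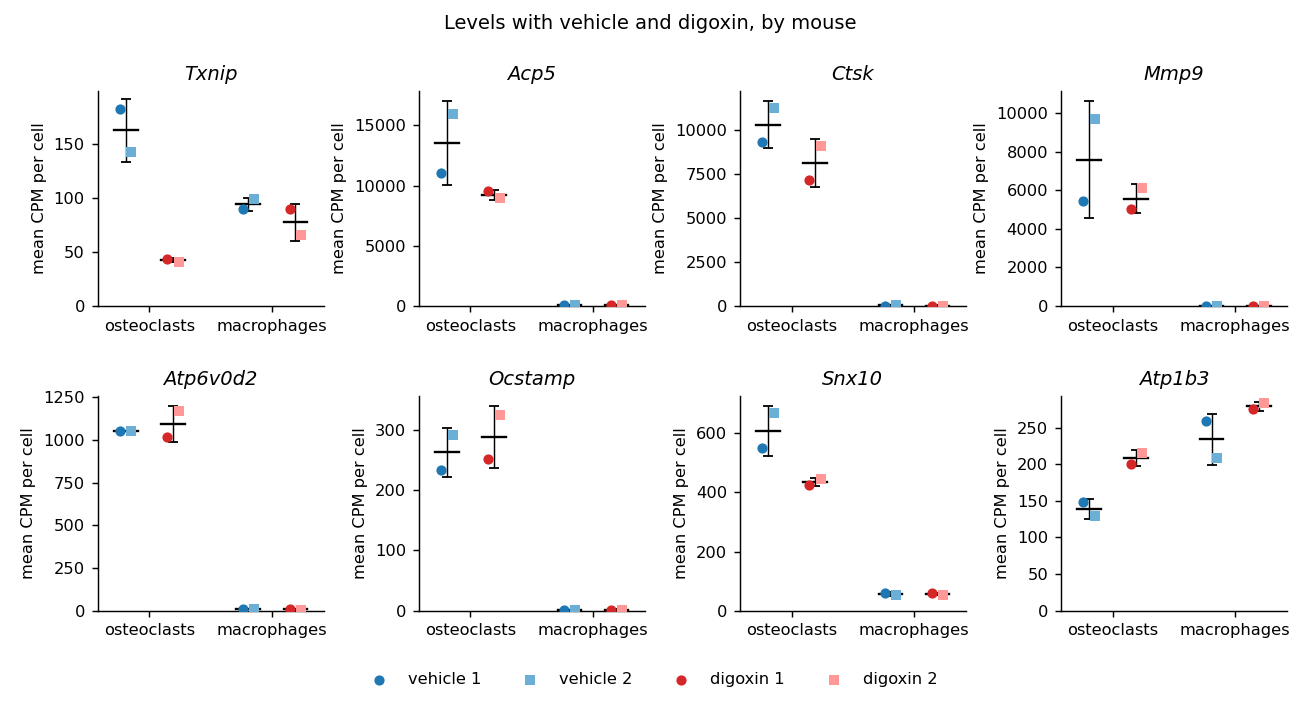
Mean CPM per cell of 8 genes in osteoclasts and macrophages, with 1 point per mouse, blue for vehicle and red for digoxin, and black lines for the mean and SD of 2 mice. Txnip in osteoclasts is at 142 and 183 CPM with vehicle and 41.1 and 43.8 CPM with digoxin, and Mmp9, Atp6v0d2 and Ocstamp overlap between groups.

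No resorption or acid secretion gene passed the test. Acp5 had a mean of 13525 ± 3459 CPM (SD, n = 2) with vehicle and 9237 ± 425 CPM with digoxin, which is -0.53 on the log2 scale with an SE of 0.163 (limma adjusted p = 0.781). Ctsk had 10267 ± 1331 CPM with vehicle and 8110 ± 1366 CPM with digoxin, which is -0.34 on the log2 scale with an SE of 0.147 (limma adjusted p = 0.781). For both genes the digoxin mice lay below both vehicle mice, as they did for 1230 genes in all (15.8%), while 1686 genes lay above (21.6%). Of the 8 resorption genes tested, 3 lay below and 0 above, and Mmp9 overlapped between the groups. Of the 25 acid secretion genes, 10 lay below, 2 above, and the list's median log2 difference was -0.08, against 0.03 for all 7803 genes. Snx10 lay lowest among them, at 549 and 669 CPM with vehicle and 425 and 446 CPM with digoxin (log2 difference -0.48, limma adjusted p = 0.781). The pump subunit Atp6v0d2 and the fusion protein Ocstamp overlapped, as did Nfatc1, at 544 and 645 CPM with vehicle and 615 and 613 CPM with digoxin, and Tnfrsf11a. At an unadjusted p under 0.05, 313 of the 7803 genes were higher (4.01%) and 185 lower (2.37%). By that measure 0 and 2 of 8 resorption genes, 0 and 3 of 25 acid secretion genes, 1 and 0 of 16 RANK pathway genes and 0 and 1 of 11 attachment genes were higher and lower. Mitochondrial RNA was lower with digoxin in osteoclasts and in macrophages, as given above for osteoclasts and at 5.20%, 6.44%, 4.74% and 4.53% in macrophages. Its part in these differences was not tested.

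The 10 genes of smallest p that were higher in both digoxin mice, none of which passed, had log2 differences of 0.65 to 1.37 and limma adjusted p values of 0.280 to 0.781. Among them were Gm42418, Ranbp1, Nme1, AC160336.1, Dmxl1, Ppa1, Stmn1, Dock10 and Cxcl2. Gm42418 overlaps a ribosomal RNA repeat, so its UMIs are uncertain. Ranbp1, a cofactor of nuclear transport, stood at 196 and 185 CPM with vehicle and 297 and 302 CPM with digoxin. Nme1, a nucleotide kinase, stood at 149 and 119 CPM with vehicle and 224 and 226 CPM with digoxin. Dmxl1, a factor of V-ATPase assembly, stood at 295 and 231 CPM with vehicle and 415 and 414 CPM with digoxin, where macrophages had 52.8 to 61.9 CPM. The groups were apart in these 3 genes by less than 2-fold. Besides Txnip, the lower genes of smallest p were Ifi27l2a, Rgs2, Aldoc, Hexa, Hspa1a, Ubald2, Fchsd2, Clec12a and Trnau1ap, at log2 differences of -1.19 to -0.43 and a limma adjusted p of 0.781 each. The most negative log2 difference of all 7803 genes was that of the heat shock gene Hspa1b, named after its values were seen, at -2.06 (limma adjusted p = 0.781). It stood at 81.2 and 33.2 CPM with vehicle and 5.26 and 24.8 CPM with digoxin. Hexa stood at 1049 and 1098 CPM with vehicle and 728 and 819 CPM with digoxin, and Clec12a, an inhibitory lectin of myeloid cells, at 813 and 864 CPM against 623 and 618 CPM. Aldoc, a glycolytic aldolase, stood at 97.9 and 82.8 CPM against 49.9 and 53.5 CPM. Atp1b3, a subunit of the sodium pump that digoxin binds, stood at 149 and 129.5 CPM with vehicle and 200.4 and 216 CPM with digoxin (log2 difference 0.58, SE 0.151, limma adjusted p = 0.781). It was picked after its values were seen, and of 3 sodium pump genes tested 1 lay above (21.6% of all genes) and 1 below (15.8%), with a median log2 difference of -0.03.

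In some lists single mice stood out. The 8 monocyte and inflammatory genes tested had a median log2 difference of 1.08, with 2 of 8 higher in both digoxin mice (21.6% of all genes) and 3 of 8 higher at an unadjusted p under 0.05 (4.01% of all genes). Digoxin replicate 1 was the highest mouse in the 3 genes that follow. Cxcl2, a neutrophil chemokine, stood at 62.0, 73.5, 277 and 112 CPM, with both digoxin mice above both vehicle mice, and macrophages had 3438 to 5873 CPM. Il1b stood at 9.82, 39.2, 131 and 23.2 CPM, and C1qa at 33.0, 128, 206 and 35.8 CPM. In a second random draw of 5000 UMIs per cell, apart from that ranked by Ctsk, C1qa was seen in 12.9% of osteoclasts. In T cells, which should lack it, the share was 18.1%. Cd14 was seen in 17.5% of osteoclasts and 29.8% of T cells. By mouse, C1qa was seen in 7.14%, 13.2%, 23.4% and 2.78% of osteoclasts and in 12.05%, 29.0%, 13.5% and 23.2% of T cells, so digoxin replicate 1 alone was above its own T cells. Without thinning the shares were 35.7% and 24.0% for C1qa and 45.2% and 32.8% for Cd14, at median depths of 24868 UMIs per osteoclast and 7765 UMIs per T cell. The 7 MHC class II genes had a median of -0.61, and all 7 overlapped between groups. H2-Aa stood at 279, 229.5, 451 and 60.6 CPM, with digoxin replicate 2 alone low, and in macrophages it was lowest in the same mouse, at 2039.6 CPM against 2842 CPM or more. Without digoxin replicate 1 limma called 6 genes, among them Cd74, H2-Aa, H2-Eb1 and H2-Ab1, and without digoxin replicate 2 it called 5, among them Cxcl2 and Txnip. These fits set 1 digoxin mouse against 2 vehicle mice, so the lone mouse is assumed to vary like the vehicle mice. In osteoclasts with no UMI of C1qa, C1qb or C1qc, of which there were 15, 60, 12 and 13 per mouse, limma called 0 of 4512 genes, and Txnip had a log2 difference of -1.71 (limma adjusted p = 0.251).

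**Figure D5:**
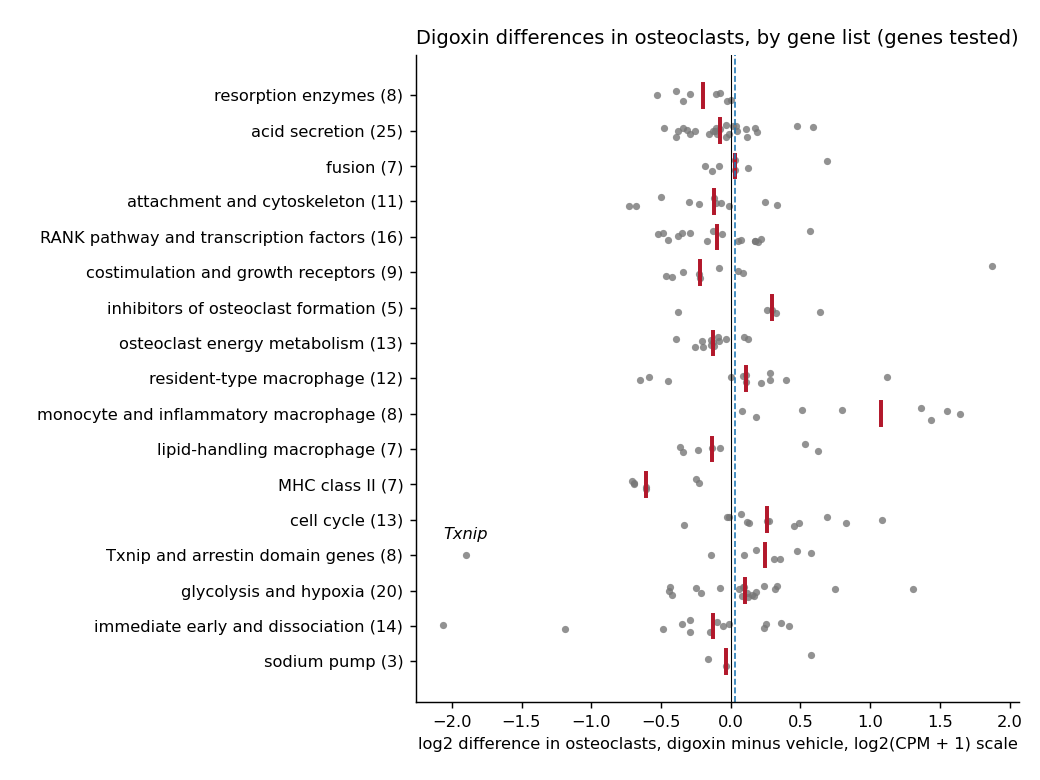
Log2 differences in osteoclasts, digoxin minus vehicle, of the genes tested in 17 lists (numbers tested in brackets), with 1 grey point per gene, a red line at each list's median and a dashed line at the median of all 7803 genes, 0.03. Txnip, at -1.90, is the only gene past the threshold, and the monocyte list lies to the right with a median of 1.08.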

How the data were processed

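Single-cell libraries of 4 tumors, 2 per group, were analysed. The authors deposited natural log values, ln(1 + UMIs per 10000 of the cell), and a table with the UMI count of each cell, its type and its mouse. Cell Ranger 3.0.2, Seurat 3.0.2 and build mm10 are named per the submitters' processing notes, and the cell filter and annotation are not given in the sources used here. Each value was turned back into UMIs, and 100% came out whole within 0.01. A library numbered 3 in its cell names is vehicle replicate 2 in the deposited cell table.

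Genes were kept by filterByExpr on summed UMIs, and log2(mean CPM + 1) per mouse was fitted with limma 3.58.1 (variance trend, Benjamini-Hochberg at 0.05). The design named edgeR for raw counts and limma for log values, and the files hold log values. The digoxin effects of osteoclasts and macrophages were compared as an interaction, with a term for each mouse. The labels do not say whether the mice are littermates, so p-values measure the spread between these 4 libraries. Same-numbered mice did not deviate together (r = -0.0793 across 7803 genes), so replicate numbers were not used as pairs. Alternatives used edgeR 4.0.16, DESeq2 1.42.0, limma-voom, other pseudocounts, no filter, fewer mice and subsets of cells. Doublets were scored with Scrublet in scanpy 1.11.5 at an expected share of 0.06, which marked 1381 of 31611 cells (4.37%), and were kept. Scripts were tested on simulated data.

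Named genes were all that passed, the 10 higher and 10 lower genes of smallest p with a mean of at least 20 CPM and groups apart, the 15 genes each way for identity, and the 3 smallest interaction p values. The members named from the first 7 lists were a choice, and not all members are given. Other genes, such as Atp1b3, Txn2, Txnrd1, Mlxip, Arrdc4 and H2-Aa, were named after their values were seen. The members and the 17 lists were chosen with earlier results of these data known. Promoter windows came from RefSeq, and entries were found for 19 of 25 acid secretion genes. A further allele of the labelled genotype and some genes are not reported here.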

Additional observations from a re-analysis of the deposited data

How the results depend on the processing

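The count of genes that limma called for digoxin in osteoclasts was small and moved with the setting. It was 1 as reported, and it stayed 1 with a pseudocount of 5 or 0.5, with no filter on low genes, without cells marked as doublets and in cells with 3 of 4 markers. On summed UMIs edgeR called 0 genes (647 at an unadjusted p under 0.05), limma-voom called 0 (791) and DESeq2 called 2, Txnip and Gm42418. CPM of summed UMIs gave 0 genes (604), and cells thinned to 5000 UMIs gave 0 (335). Cells with no C1q UMI, a setting chosen after seeing the data, gave 0 (143). With a replicate block limma called 3 genes, Txnip, Gm42418 and Rsad2, and the numbers share no known source. Without single replicates the count ran from 0 to 6, and it was 0 without vehicle replicate 2. Without vehicle replicate 1 it was 1, and that gene was Xist. For the difference between osteoclasts and macrophages it ran from 0 to 9, with 9 without digoxin replicate 1 and 5 without digoxin replicate 2, where the lone mouse is assumed to vary like the others. Txnip passed the threshold in 9 of 16 alternatives, with log2 differences of -2.08 to -1.28, smallest in thinned cells. None of the 22 genes named for digoxin changed direction in the alternatives in which it was tested. In all 22 the groups did not overlap, which was a condition for most of them, so leaving out a mouse could not reverse the difference. The digoxin minus vehicle share of osteoclasts among non-malignant cells, -1.73 percentage points as reported, ran from -3.79 to 0.33 without single replicates, and it was above 0 only without vehicle replicate 2. Among osteoclasts and macrophages together it likewise ran from -4.34 to 0.34. With 28 to 152 osteoclasts and 790625 to 3702232 UMIs per mouse, genes under about 5 CPM rest on few UMIs, and with 2 mice per group a single library can decide a call.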

Other observations

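A few cells outside the osteoclasts carried osteoclast genes at high levels, and they were picked out after the values were seen. Among the 10363 macrophages, 31 had at least 20 Ctsk UMIs per 10000, a level that 231 of the 263 osteoclasts reached, and 28 of the 31 were in the sub-cluster Highly proliferative M2. They were spread over the mice as 7, 7, 8 and 9 cells for vehicle replicates 1 and 2 and digoxin replicates 1 and 2, where the osteoclasts numbered 28, 152, 47 and 36. As a description of cells chosen by their Ctsk, they had medians of 4694 CPM for Acp5, 759.8 CPM for Atp6v0d2 and 346 CPM for Nfatc1, against 12401 CPM, 1047 CPM and 583 CPM in osteoclasts. The fusion gene Ocstamp was at a median of 15.5 CPM against 240.02 CPM. Their median for the division marker Mki67 was 676 CPM and that for Top2a, which untangles DNA in dividing cells, was 632 CPM, while both medians were 0 in osteoclasts. The macrophage genes C1qa, Adgre1, Mrc1 and Cd14 each had a median of 0 CPM in them, with means of 562, 41.3, 118 and 205 CPM. Their median depth was 36102 UMIs against 24868 UMIs per osteoclast, and doublet scoring marked 0 of the 31. With these 31 cells left out, Ctsk in Highly proliferative M2 cells was 19.7 to 31.0 CPM and Mmp9 8.89 to 39.1 CPM, against 8.47 to 13.2 CPM and 4.37 to 6.70 CPM in M1 and M2 cells, and Ocstamp, at 0.990 to 2.74 CPM, overlapped their 1.21 to 1.73 CPM. Atp6v0d2 stayed at 21.7 to 34.8 CPM and Slc9b2 at 16.6 to 25.2 CPM over the 4 mice, against at most 5.26 CPM and 1.27 CPM in the M1 and M2 cells. The part of doublets or of the deposited clustering in these values was not tested.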
